A study of Rattus norvegicus with 192 samples.

Results

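The cytochrome P450 genes described here are those that fall outside the large drug-induced and bile acid groups. They were taken from the rat TempO-Seq table by symbol, as all Cyp genes with a family number, a subfamily letter and a member number, leaving out the Cyp2c, Cyp3a and Cyp4a subfamilies and Cyp1a1, Cyp1a2, Cyp2b2, Cyp2b3, Cyp7a1, Cyp8b1 and Cyp27a1. This rule found 51 probes for 47 genes among the 22253 probes of the table, and 23 other P450 probes lie outside it. By role, 24 probes belong to families 1 and 2, 13 to family 4, 6 to steroid hormone synthesis and 3 to vitamin D. Another 2 belong to retinoic acid breakdown and 2 to the hydroxylation of oxysterols and cholesterol, and 1 is the probe of Cyp20a1. TempO-Seq counts ligated pairs of detector oligonucleotides, so each value is the count of a probe, given here after scaling the counts of its library to a total of 1000000 (CPM). Probes differ in efficiency, so levels of different probes are not compared.

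Male rat primary hepatocytes, isolated from liver and plated on collagen, were exposed for 24 h to 1 of 29 chemicals at 6 doses with 1 library per dose, to 1 of 9 reference chemicals at a single dose with 1 library each, or to the solvent alone (DMSO at 0.1%, 9 libraries). The 13 chemicals with doses between 0.14 and 33.3 µM were acetochlor, alachlor, ametryn, Bensulide, Bisphenol A, dithiopyr, etoxazole, flusilazole, hexaconazole, imazalil, tetraconazole, triclosan and triflumizole. The 16 with doses between 0.4 and 100 µM were carbaryl, cyclanilide, cyproconazole, cyprodinil, DEHP, dichlobenil, dimethenamid, fludioxonil, isoxaflutole, oxadiazon, PFOA, PFOS, S-Bioallethrin, simazine, triadimefon and triticonazole. The reference chemicals were WY-14,643 and Pregnenolone 16alpha carbinonitrile at 15 µM, sulforaphane, dexamethasone, testosterone and 17beta-estradiol at 10 µM, oltipraz at 30 µM, and GW 4046 and TCPOBOP at 1.5 µM. Strain, age and the number of donor animals are not given in the sources used here, and the libraries were spread over 3 plates with 3 DMSO libraries on each.

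Total counts lay between 582071 and 11249014 per library (median 5745085). DMSO replicate 1 stood apart, with Pearson correlations of 0.742 to 0.847 with the other DMSO libraries on a log2 scale, against 0.925 to 0.990 among replicates 2 to 9. Results therefore rest on DMSO replicates 2 to 9, and the values with replicate 1 are given beside each comparison. The 8 hepatocyte markers had a summed level of 28306 to 49454 CPM in these 8 libraries, while the 8 macrophage markers summed to 47.97 to 81.7 CPM, the 8 endothelial markers to 15.3 to 22.2 CPM, the 7 stellate or mesenchymal markers to 49.7 to 86.2 CPM and the 6 bile duct markers to 16.0 to 29.2 CPM. Most of the last 2 sums came from Tagln (43.8 to 80.8 CPM) and Epcam (15.3 to 29.2 CPM), while Col1a1, Krt7 and Cftr of these lists had 0 counts. Ttr was the largest part of the hepatocyte sum, with 13083 to 33882 CPM. Fewer hepatocytes and less RNA per hepatocyte cannot be told apart in these bulk libraries.

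P450 enzymes are haem proteins that insert oxygen into lipophilic molecules, and those of the endoplasmic reticulum take their electrons from the reductase Por. Liver is their main site, where family 2 enzymes oxidise drugs, solvents and fatty acids and family 4 enzymes oxidise the far end of fatty acids and leukotrienes. Other members make or break down signalling molecules: steroid hormones in adrenal gland and gonads, vitamin D in kidney, and retinoic acid and oxysterols in many tissues.

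The sequences before the transcription start are shown for 5 genes. Cyp1b1 is shown for the core motif of the aryl hydrocarbon receptor, since it was the member with the largest library value among those too low to be tested. The Cyp2d genes are shown since they are close relatives on 1 chromosome and make up several of the calls. All are the 250 bases before the annotated start, from RefSeq on build GRCr8, read 5′ to 3′ along the gene. Capitals mark GCGTG (either strand) in Cyp1b1 and TATAAA (either strand) in the Cyp2d genes.
Cyp1b1, chr6:21094315-21094564, plus strand: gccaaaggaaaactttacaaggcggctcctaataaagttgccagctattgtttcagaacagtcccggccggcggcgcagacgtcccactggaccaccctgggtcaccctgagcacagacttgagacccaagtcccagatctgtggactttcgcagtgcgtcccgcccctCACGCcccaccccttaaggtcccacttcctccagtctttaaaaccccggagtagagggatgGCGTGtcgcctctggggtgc
Cyp2d1, chr7:115793431-115793680, minus strand: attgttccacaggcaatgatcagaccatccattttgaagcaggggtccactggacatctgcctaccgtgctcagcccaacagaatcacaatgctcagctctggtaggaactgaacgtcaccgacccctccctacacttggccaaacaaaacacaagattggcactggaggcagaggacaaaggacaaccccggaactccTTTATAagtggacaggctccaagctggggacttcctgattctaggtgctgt
Cyp2d3, chr7:115802143-115802392, minus strand: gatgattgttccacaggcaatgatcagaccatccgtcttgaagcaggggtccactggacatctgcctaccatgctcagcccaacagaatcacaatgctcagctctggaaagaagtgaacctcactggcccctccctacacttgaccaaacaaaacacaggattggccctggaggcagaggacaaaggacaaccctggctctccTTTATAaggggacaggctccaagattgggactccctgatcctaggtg
Cyp2d4, chr7:115771822-115772071, minus strand: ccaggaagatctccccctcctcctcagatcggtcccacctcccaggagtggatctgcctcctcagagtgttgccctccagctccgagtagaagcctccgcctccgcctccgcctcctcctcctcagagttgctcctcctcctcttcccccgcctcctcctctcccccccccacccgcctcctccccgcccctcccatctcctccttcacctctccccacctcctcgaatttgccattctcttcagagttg
Cyp2d5, chr7:115784488-115784737, minus strand: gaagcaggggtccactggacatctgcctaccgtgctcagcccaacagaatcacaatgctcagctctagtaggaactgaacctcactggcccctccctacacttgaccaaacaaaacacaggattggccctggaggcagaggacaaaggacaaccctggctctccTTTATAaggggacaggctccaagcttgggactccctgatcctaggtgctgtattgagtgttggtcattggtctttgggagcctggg
Of the 47 genes 36 had a promoter entry. GCGTG occurred in this window in 13 of these 36 genes and in 25.9% of all 33469 promoters, and TATAAA in 9 of 36 genes and in 12.9% of all promoters. Cyp1b1 held GCGTG at 2 places. The windows of Cyp2d1 and Cyp2d3 were 89.0% identical in a global alignment, that of Cyp2d5 was 70.5% and 70.9% identical to these, and that of Cyp2d4 was 47.4% to 48.8% identical to the other 3 and held no TATAAA. A match is a description of letters and not a binding site. Such close relatives can share probe binding, and the probe sequences are not given in the sources used here, so single Cyp2d and Cyp4f values are uncertain.

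Of the 51 probes 21 (18 genes) reached the level needed for a test, at least 1.741 CPM in at least 6 of the 192 libraries, and 30 probes (29 genes) did not. In the 8 DMSO libraries, 18 of the 51 probes had a median at or above 1.741 CPM. A probe that passed only through treated libraries where it is high had to differ, so the number that passed carries no meaning of its own.

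The untested members include all but 1 of the steroid hormone genes and all vitamin D, retinoic acid and oxysterol genes. Of the 30 untested probes, 24 had a DMSO median of 0 CPM and 16 had 0 counts in every one of the 8 DMSO libraries. Cyp11a1, which makes pregnenolone from cholesterol, Cyp11b2 (aldosterone synthase), Cyp11b3, Cyp19a1 (aromatase) and Cyp21a1 stayed at or below 0.701 CPM in every library. Cyp24a1, the vitamin D catabolic enzyme, reached at most 0.182 CPM, Cyp27b1, which activates vitamin D, 1.55 CPM, and Cyp26b1 and Cyp26c1, which break down retinoic acid, 0.430 and 0.721 CPM. Cyp7b1 and Cyp46a1, which hydroxylate oxysterols and cholesterol, reached 1.27 and 0.678 CPM. The highest Cyp24a1 and Cyp7b1 values belonged to DMSO replicate 1. So did that of Cyp2r1, a vitamin D hydroxylase of liver, at 6.54 CPM, against 0 to 0.854 CPM in DMSO replicates 2 to 9. Among family 1 and 2 genes, Cyp2ab1, Cyp2ac1, Cyp2b12, Cyp2b15, Cyp2b21, Cyp2g1, Cyp2j16, Cyp2s1 and Cyp2w1 reached at most 0.545 CPM, and Cyp2a3, a gene known from rat nose and lung, reached 2.55 CPM in the testosterone library. Of family 4, Cyp4b1, Cyp4f18, Cyp4f5, Cyp4x1 and both Cyp4f37 probes reached at most 1.49 CPM, and Cyp4f40 had 3.44 CPM in the shallow sulforaphane library.

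Cyp1b1, which oxidises oestrogens and polycyclic aromatic compounds and is induced through the aryl hydrocarbon receptor, was almost silent and stood out in 2 libraries. The probe had between 0 and 0.854 CPM in DMSO (0 to 5 counts). With fludioxonil it had 0.234, 0, 0.304, 0.189, 0.409 and 9.25 CPM at 0.4, 1.2, 3.7, 11.1, 33.3 and 100 µM, so that the last library, with 43 counts, lay above the others. The oltipraz library had 4.69 CPM (17 counts). Without a filter on low counts the fludioxonil trend was 4.38 ± 0.77 (log2 change at 33.3 µM ± SE, adjusted p = 0.022 in edgeR's quasi-likelihood test over 16516 probes), resting on that 1 library, and the oltipraz library gave 3.81 ± 1.09 (adjusted p = 0.076). Of the 183 treated libraries 83 had 0 counts, and 8 exceeded the highest DMSO value.

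For the 21 testable probes, the change with dose was fitted for each chemical on log2(1 + dose in µM), with plate as a factor, and is given as the fitted log2 change at 33.3 µM against DMSO. Over the 29 chemicals, 15 of 609 tests passed an adjusted p of 0.05 in edgeR's quasi-likelihood test (2.46%), against 1.66% of the tests over all probes. These 15 fell on 9 probes and on 4 chemicals, dithiopyr and the azoles cyproconazole, imazalil and triticonazole. In 14 the gene fell and in 1 it rose. The other 25 chemicals had 0 called members, and 0.502% of their tests over all probes were called. In each, 0 to 9 members had an unadjusted p under 0.05. No share of all probes at that threshold is given, so these counts are not compared. DESeq2 called 39 in place of 15, including 3 with oxadiazon, 2 with ametryn and 1 each with DEHP, PFOA, simazine, triadimefon and triflumizole. Over all 11055 tested probes DESeq2 called more as well, 485 against 147 with oxadiazon and 332 against 85 with ametryn. It called 277 against 27 with simazine, 279 against 106 with triadimefon and 149 against 56 with triflumizole.

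**Figure D1:**
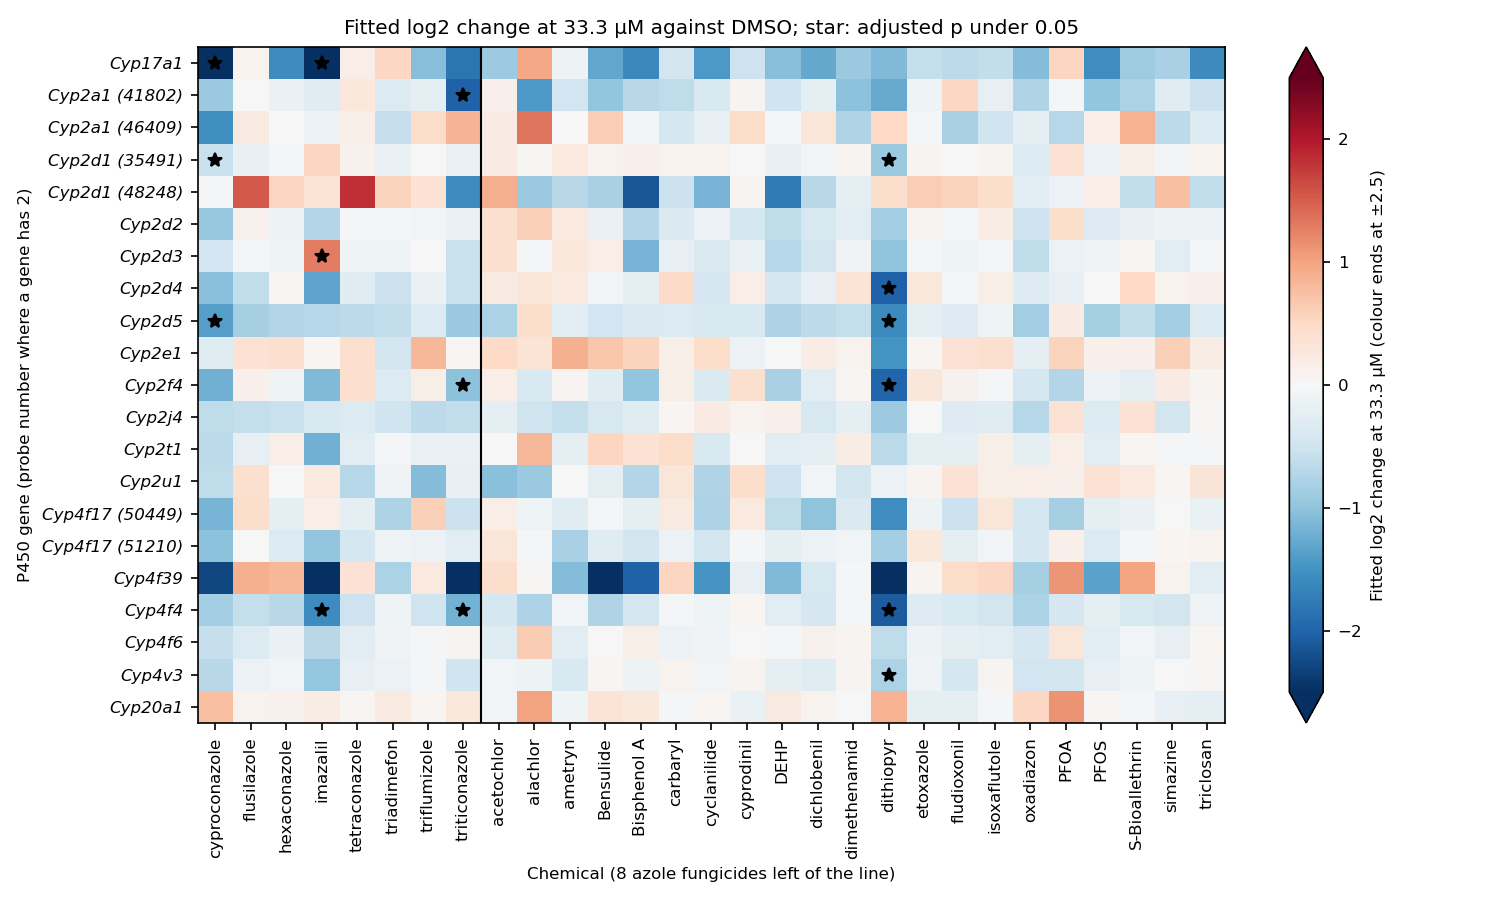
Fitted log2 change at 33.3 µM against DMSO for the 21 tested P450 probes (rows) in 29 chemicals (columns, the 8 azole fungicides left of the line), with stars for an adjusted p under 0.05. The 15 stars stand in 4 columns, 6 of them in the dithiopyr column, and the single red one is Cyp2d3 with imazalil.

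Dithiopyr, a pyridine herbicide, gave the most calls among the 29 chemicals. Of 21 probes 6 fell and 0 rose, and 6.74% of all tested probes fell. The 6 were Cyp2d1, Cyp2d4 and Cyp2d5, Cyp2f4, and the family 4 genes Cyp4f4 and Cyp4v3. The median change of the 21 probes was -0.94, against -0.01 for all tested probes. Rat Cyp2d enzymes are related to human CYP2D6, which oxidises many basic drugs. Cyp2d4 ranged between 24.7 and 36.9 CPM in DMSO (median 29.9) and was 37.0, 30.9, 36.6, 26.99, 19.6 and 5.07 CPM at 0.14, 0.4, 1.2, 3.7, 11.1 and 33.3 µM. The 2 highest doses lay below every DMSO library, and the fitted change was -2.03 ± 0.40 (adjusted p = 0.0043). Cyp2d1 (probe 35491) ranged between 112.6 and 146.1 CPM in DMSO (median 137.0) and was 141.9, 159.9, 148.4, 140.0, 107.7 and 79.6 CPM at the same doses, a change of -0.94 ± 0.19 (adjusted p = 0.0050). Cyp2d5 had 7.87 to 20.9 CPM in DMSO (median 11.5) and 11.6, 10.4, 13.2, 8.04, 7.76 and 4.44 CPM with dithiopyr (change -1.59 ± 0.41, adjusted p = 0.021). Its DMSO values varied more than those of Cyp2d1, and its 2 highest doses were below them all.

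Cyp2f4, of a subfamily known for activating naphthalene in rodent lung, had the smallest adjusted p of any member in the trends of single chemicals. It had 35.1 to 65.9 CPM in DMSO (median 56.3) and 77.5, 63.6, 48.5, 43.3, 33.4 and 15.8 CPM from the lowest to the highest dithiopyr dose, falling at each step (change -1.99 ± 0.27, adjusted p = 0.00048). Cyp4f4, an enzyme of leukotriene and fatty acid oxidation, had 18.4 to 39.7 CPM in DMSO (median 34.6) and 37.6, 30.3, 30.1, 27.3, 19.4 and 6.34 CPM with dithiopyr (change -2.08 ± 0.36, adjusted p = 0.0021). The highest dose alone was below the DMSO range. Cyp4v3, a fatty acid hydroxylase whose human relative is mutated in a retinal dystrophy, had 158.2 to 199.1 CPM in DMSO (median 186.5) and 178.5, 169.3, 186.2, 169.4, 144.4 and 108.1 CPM with dithiopyr (change -0.79 ± 0.16, adjusted p = 0.0058).

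At 33.3 µM dithiopyr, 16 of the 21 probes had a CPM below all 8 DMSO libraries, against 22.9% of all tested probes. Among the 16 was Cyp17a1 at 0 counts, which allows up to 0.951 CPM, a level within its DMSO range of 0.378 to 2.83 CPM. Cyp20a1, a P450 with no settled substrate, lay above all 8 DMSO libraries with 190.8 CPM against 72.1 to 171.4 CPM in DMSO. Cyp2e1, which oxidises ethanol and paracetamol, had 19.97 CPM there against 84.3 to 126.9 CPM in DMSO and just missed the threshold (change -1.49 ± 0.48, adjusted p = 0.054). Hepatocyte markers moved with these genes: 7 of 8 fell, and their sum was 14337 CPM at 33.3 µM against 28306 to 49454 CPM in DMSO. The macrophage markers Clec4f and Csf1r (2 of 6 tested) and the stellate marker Col1a2 (1 of 3 tested) also fell, with sums of 39.3 and 67.2 CPM for these lists at 33.3 µM, and that library correlated at 0.945 with the DMSO median. The part of these in the result was not tested. Of the 17 measured genes that serve P450 enzymes (electron donors, haem synthesis and breakdown), 2 rose and 0 fell with dithiopyr, the ferredoxin Fdx1 by 1.29 ± 0.20 and the haem-binding protein Pgrmc1 by 0.75 ± 0.15. Without the 33.3 µM library none of the 6 passed (changes of -0.57 ± 0.23 for Cyp4v3 to -1.66 ± 0.37 for Cyp2f4, adjusted p 0.069 to 0.36). With DMSO replicate 1 added Cyp2d4, Cyp2f4 and Cyp4f4 passed, and Cyp2d5 was lost without DMSO replicate 2 (adjusted p = 0.051).

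**Figure D2:**
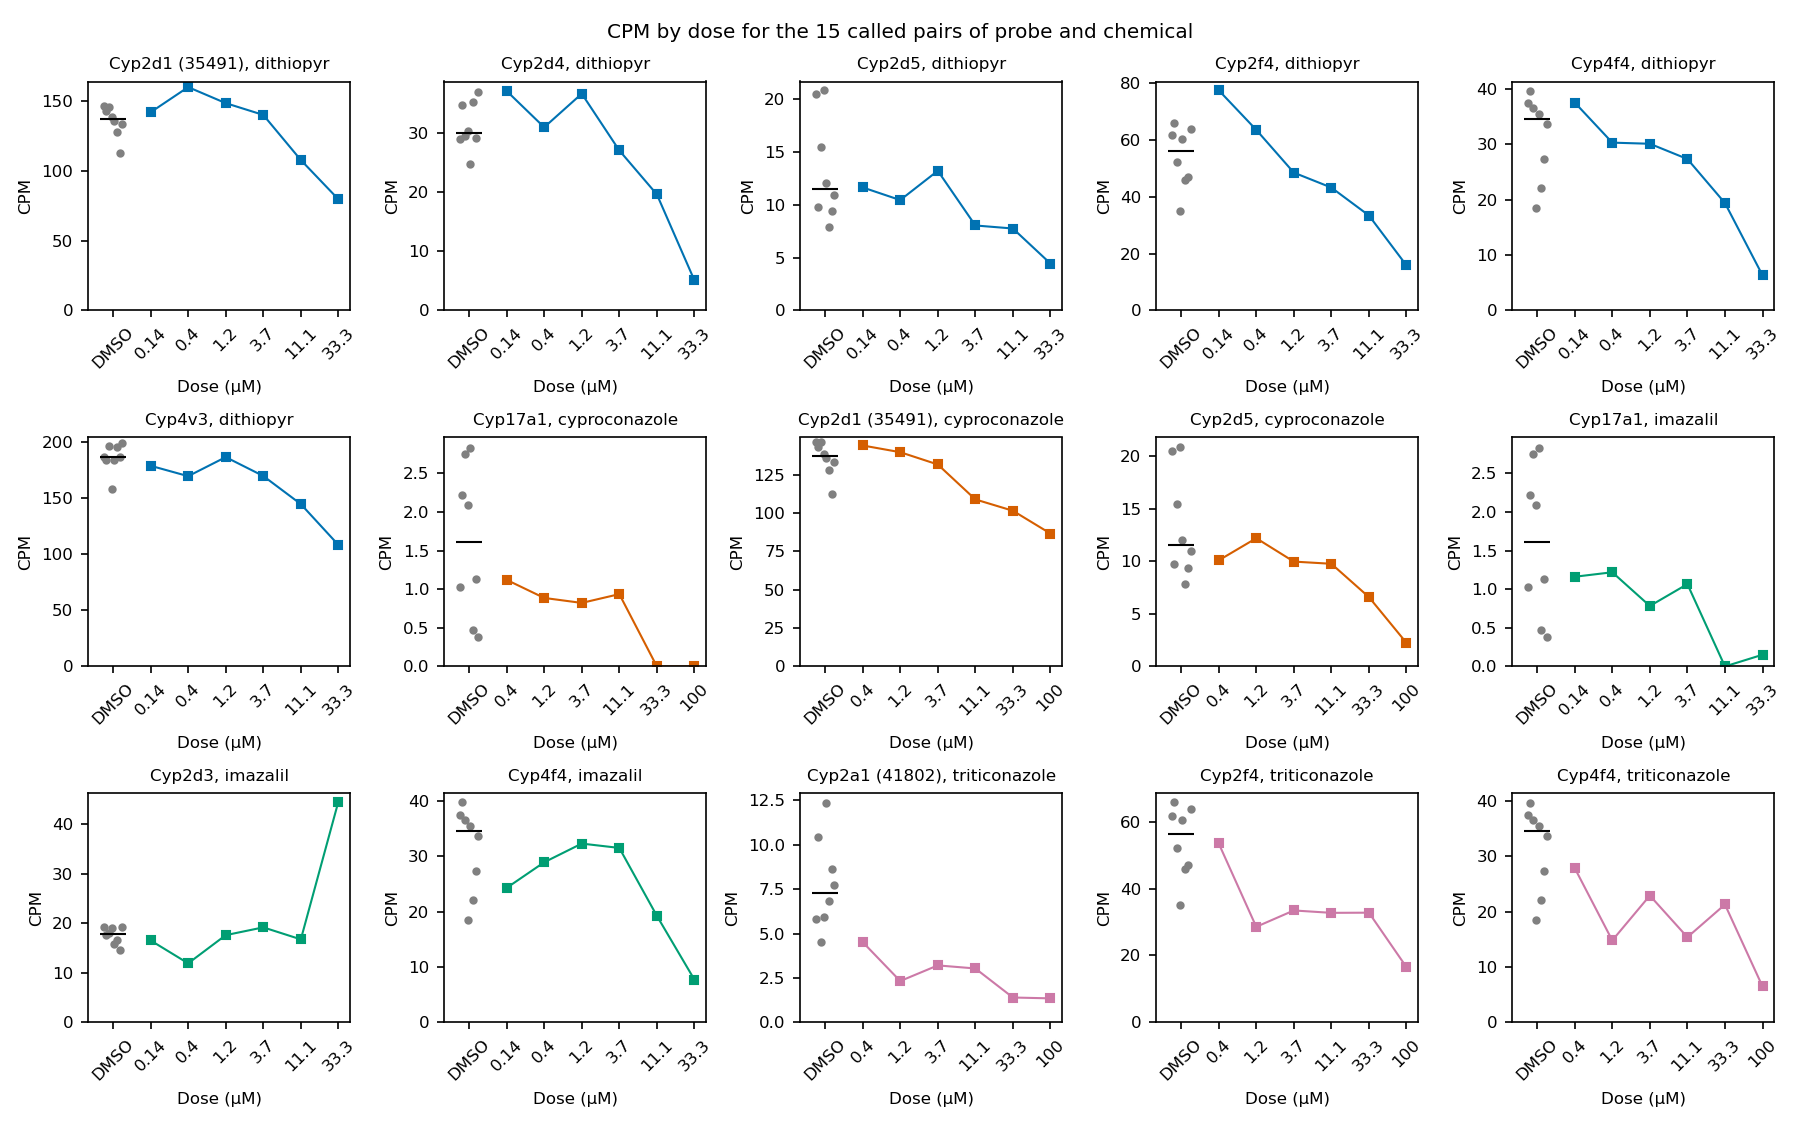
CPM (vertical axes, from 0) against dose in µM for the 15 called pairs of probe and chemical, with the 8 DMSO libraries as grey points and their median as a bar at the left of each panel. The highest dose has the lowest of the 6 values, ties included, in 13 of 15 panels.

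Cyproconazole, a triazole fungicide, gave 3 calls: Cyp17a1, Cyp2d1 and Cyp2d5 fell, 0 rose, and 3.1% of all tested probes fell. The median change of the 21 probes was -0.85, against -0.07 for all tested probes. Cyp2d1 was 143.9, 139.6, 131.5, 108.8, 101.4 and 86.5 CPM at 0.4, 1.2, 3.7, 11.1, 33.3 and 100 µM, falling at each step from within the DMSO range to below it (change -0.55 ± 0.13, adjusted p = 0.018). Cyp2d5 was 10.1, 12.2, 9.98, 9.77, 6.60 and 2.24 CPM (change -1.37 ± 0.35, adjusted p = 0.026), with the 2 highest doses below every DMSO library. Cyp17a1, the hydroxylase and lyase of androgen synthesis, is scarce in these cells, with 0.378 to 2.83 CPM (2 to 17 counts) in DMSO. With cyproconazole it had 12, 4, 8, 7, 0 and 0 counts, or 1.12, 0.887, 0.823, 0.937, 0 and 0 CPM, a change of -3.02 ± 0.80 (adjusted p = 0.029). A count of 0 allows up to 0.733 CPM at 33.3 µM and up to 2.24 CPM in the 100 µM library, so a value below DMSO was not detectable in the last at this depth. The 3 DMSO libraries of the same plate had 2.09 to 2.83 CPM, above all 6 cyproconazole libraries. The same held for all 6 libraries of triticonazole, dichlobenil, PFOS, dimethenamid, carbaryl and DEHP on that plate, so it is not particular to cyproconazole. DMSO libraries of plate 3 had 0.378 to 1.13 CPM.

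For cyproconazole, the 100 µM library had 1340300 counts, the fewest of any dose library, and correlated at 0.876 with the DMSO median. There 18 of the 21 probes had a CPM below all 8 DMSO libraries, Cyp17a1 with its 0 counts included, against 39.8% of all tested probes. The hepatocyte markers summed to 16879 CPM there, the endothelial markers to 35.8 CPM and the stellate markers to 31.3 CPM. Of the 8 hepatocyte markers 2 fell with cyproconazole, and 0 tested markers of the other cell types passed. Whether they or the depth bear on the P450 values was not tested. Without that library the 3 genes did not pass (Cyp17a1 -2.90 ± 0.86, Cyp2d1 -0.52 ± 0.14, Cyp2d5 -1.10 ± 0.39, adjusted p 0.13 to 0.28), and 0 passed with DMSO replicate 1 added. Cyp17a1 was also lost without DMSO replicate 4 or 6 (adjusted p = 0.067 each) or the 33.3 µM library (adjusted p = 0.056).

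Imazalil, an imidazole fungicide, gave the single rise. Cyp2d3 had 14.7 to 19.3 CPM in DMSO (median 17.9) and 16.6, 11.9, 17.6, 19.2, 16.8 and 44.6 CPM at 0.14, 0.4, 1.2, 3.7, 11.1 and 33.3 µM. The lower 5 doses lay within or below the DMSO range and the highest far above it (change 1.29 ± 0.30, adjusted p = 0.022, with 7.68% of all probes higher). Without the 33.3 µM library the change was 0.17 ± 0.37. At that dose 11 of the 21 probes had a CPM below all 8 DMSO libraries, Cyp17a1 with 1 count included, against 38.4% of all tested probes. The neighbour Cyp2d1 had 213.2 CPM at 33.3 µM against 112.6 to 146.1 CPM in DMSO and did not pass (change 0.53 ± 0.20, adjusted p = 0.088), and Cyp2d2, Cyp2d4 and Cyp2d5 lay below all 8 DMSO libraries in that library.

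Cyp17a1 and Cyp4f4 fell with imazalil, when 2.87% of all probes fell. Cyp17a1 had 1.16, 1.22, 0.783, 1.07, 0 and 0.151 CPM, which are 8, 9, 6, 6, 0 and 1 counts (change -3.33 ± 0.94, adjusted p = 0.038). The 0 at 11.1 µM allows up to 0.524 CPM. DMSO replicates 2 and 3, of the same plate, had 1.02 and 2.22 CPM, so the libraries at 1.2, 11.1 and 33.3 µM were below both. Cyp4f4 was 24.3, 28.9, 32.2, 31.5, 19.2 and 7.71 CPM (change -1.57 ± 0.41, adjusted p = 0.029), the last below every DMSO library. The 33.3 µM library correlated at 0.905 with the DMSO median, its hepatocyte markers summed to 14707 CPM (1 of 8 fell), its macrophage markers to 150.3 CPM (Cd68 rose) and its stellate markers to 14.2 CPM (Tagln fell), and the part of these in the result was not tested. Without that library none of the 3 passed (Cyp17a1 -3.56 ± 1.34, Cyp4f4 -0.85 ± 0.49, adjusted p = 0.9999 for all 3), and 0 passed with DMSO replicate 1 added. Leaving out DMSO replicate 2 or 3 lost both Cyp17a1 (adjusted p 0.052 and 0.083) and Cyp4f4 (0.061 and 0.052), and Cyp17a1 was lost without DMSO replicate 4 (0.053) or the 1.2 µM library (0.057).

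With triticonazole Cyp2a1, Cyp2f4 and Cyp4f4 fell, with 0 members higher and 2.14% of all probes lower. Cyp2a1, a steroid hydroxylase of rat liver, has 2 probes that went apart. Probe 41802 had 4.50 to 12.3 CPM in DMSO (median 7.28) and 4.52, 2.33, 3.21, 3.03, 1.40 and 1.35 CPM at 0.4, 1.2, 3.7, 11.1, 33.3 and 100 µM (change -2.02 ± 0.45, adjusted p = 0.031), so that 5 of 6 doses were below the DMSO range. Probe 46409 had 1.89 to 10.4 CPM in DMSO (median 4.19) and 3.58, 13.1, 10.1, 17.8, 11.8 and 11.9 CPM with triticonazole, and its trend did not pass. Which transcripts the probes detect is not given in the sources used here. Cyp2f4 was 53.5, 28.6, 33.4, 32.7, 32.8 and 16.5 CPM (change -1.02 ± 0.22, adjusted p = 0.027) and Cyp4f4 was 27.9, 14.8, 22.9, 15.4, 21.3 and 6.49 CPM (change -1.18 ± 0.31, adjusted p = 0.049), against the DMSO ranges given above. At 100 µM 11 of the 21 probes had a CPM below all 8 DMSO libraries, Cyp17a1 with 1 count included, against 17.1% of all tested probes. Of the hepatocyte markers 4 of 8 fell, with a sum of 26746 CPM at 100 µM. The macrophage marker Cd163 rose and the bile duct marker Epcam fell, and at 100 µM the macrophage, stellate and bile duct markers summed to 98.2, 19.5 and 11.6 CPM. The triticonazole libraries also stood apart, with correlations with the DMSO median of 0.936 at 1.2 µM and 0.949 at 100 µM. The part of these in the result was not tested.

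Without the 100 µM library none of the 3 triticonazole calls passed (Cyp2a1 -2.21 ± 0.61, Cyp2f4 -0.76 ± 0.27, Cyp4f4 -0.74 ± 0.34, adjusted p 0.28 to 0.43), nor did any with DMSO replicate 1 added. Cyp2a1 and Cyp2f4 were lost without DMSO replicate 4 (adjusted p 0.071 and 0.079) or 6 (0.073 and 0.072), and Cyp2a1 without the 3.7 or 11.1 µM library (0.051 each). Cyp4f4 was lost in 10 of 13 fits that left out 1 library, with adjusted p up to 0.13, and kept its direction in all.

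Members also lay low at the highest dose of some chemicals without a call. At 100 µM oxadiazon 14 of the 21 probes had a CPM below all 8 DMSO libraries, Cyp17a1 with 1 count included, against 17.5% of all tested probes, and at 100 µM triadimefon 11 of the 21 did, against 15.4%. In oxadiazon Cyp2f4 had 51.9, 71.8, 71.1, 59.1, 56.7 and 20.8 CPM from 0.4 to 100 µM, with the last library alone below the DMSO range. In triadimefon Cyp2d5 had 10.4, 12.4, 12.6, 8.65, 7.29 and 4.90 CPM, the last 2 below that of DMSO. These chemicals and genes were picked out after their values were seen.

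The 8 azoles (cyproconazole, flusilazole, hexaconazole, imazalil, tetraconazole, triadimefon, triflumizole and triticonazole) inhibit fungal sterol synthesis by binding a P450. Their mean trend averages 8 slopes, so a few strong ones can carry it and it does not show a change in each azole. In the single trends the median change of the 21 probes was -0.85 for cyproconazole, -0.70 for imazalil and -0.53 for triticonazole. For the other azoles it lay between -0.15 and 0.02. Of the 21 probes 9 fell and 0 rose, against 14.5% of all tested probes lower and 11.6% higher. The 20 tested probes of other P450 genes split into 8 higher and 6 lower in the same fit. The median change was -0.25 for the 21 probes and -0.02 for all tested probes. By role the 9 were Cyp17a1 (-0.97 ± 0.31, adjusted p = 0.016), 4 family 2 genes and 4 family 4 genes. Cyp2d5 had the smallest adjusted p (-0.64 ± 0.12, adjusted p = 0.00010), followed by Cyp4f4 (-0.59 ± 0.14, adjusted p = 0.0013) and Cyp2j4, an arachidonic acid epoxygenase (-0.45 ± 0.11, adjusted p = 0.0013). Cyp2d4 changed by -0.55 ± 0.15, Cyp4f17 (probe 51210) by -0.40 ± 0.11, Cyp2t1 by -0.38 ± 0.13, Cyp4v3 by -0.31 ± 0.09 and Cyp4f6 by -0.25 ± 0.07. Over all 29 chemicals, azoles included, the median change was -0.92 for Cyp17a1, -0.62 for Cyp2d5, -0.44 for Cyp4f4 and -0.35 for Cyp2j4. Their single trends were negative in 24, 27, 28 and 21 of the 29 chemicals, so these falls are not particular to azoles. For Cyp2d4, Cyp4f17 (probe 51210), Cyp2t1, Cyp4v3 and Cyp4f6 the median lay between -0.16 and -0.06. Cyp2e1 (0.02 ± 0.08) and probe 35491 of Cyp2d1 (-0.05 ± 0.05) had intervals that reached no further than 0.17 from 0. Such a mean can hide slopes of opposite sign. In the single trends this Cyp2d1 probe was called lower with cyproconazole, and with imazalil its change was 0.53 without a call. Probe 48248 of Cyp2d1 changed by 0.65 ± 0.46 in the mean trend, with an interval of -0.27 to 1.56. Of the 17 genes that serve P450 enzymes 4 rose, among them Por by 0.42 ± 0.15 and Cyb5a by 0.57 ± 0.13, and 3 fell.

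The azole calls rest on the highest doses: with these left out 0 of 21 probes passed, and the changes were -0.07 ± 0.10 for Cyp4f17 to -1.12 ± 0.46 for Cyp17a1 (adjusted p 0.11 to 0.85). Without imazalil, 6 probes passed, and Cyp17a1 (-0.70 ± 0.31, adjusted p = 0.12), Cyp2t1 (-0.22, adjusted p = 0.23), Cyp4f6 (-0.19, adjusted p = 0.074) and Cyp4v3 (-0.22, adjusted p = 0.065) did not. Without cyproconazole, Cyp17a1 (-0.76, adjusted p = 0.082) and Cyp2t1 (-0.33, adjusted p = 0.066) did not pass, nor did Cyp2t1 without tetraconazole (-0.37, adjusted p = 0.061). With DMSO replicate 1 added Cyp4f6 did not pass (adjusted p = 0.17). Of the 8 hepatocyte markers 4 fell in the same fit. The macrophage marker Cd68 rose, and Marco, Clec4f and the mesenchymal marker Tagln fell. The part of these markers was not tested.

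**Figure D3:**
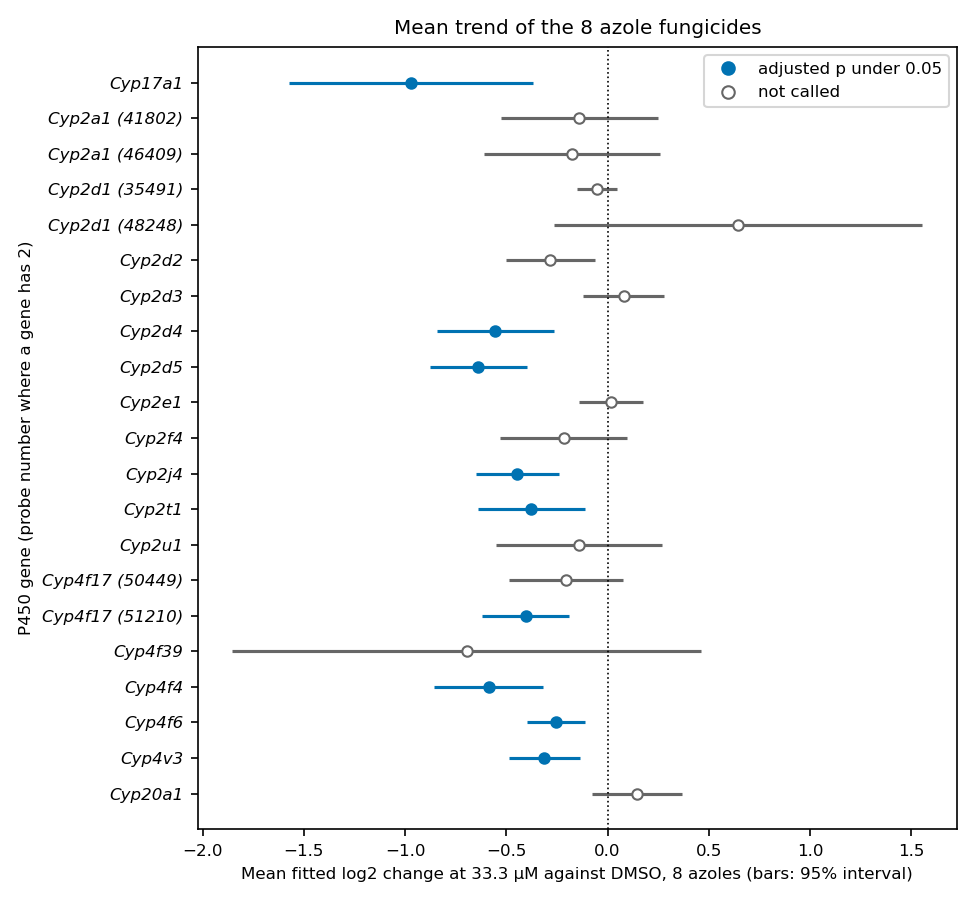
Mean fitted log2 change at 33.3 µM against DMSO over the 8 azoles for each of the 21 tested probes, with bars for 95% intervals, filled points for an adjusted p under 0.05 and open points for the rest. All 9 filled points lie left of 0, Cyp17a1 farthest at -0.97.

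The perfluorinated acids PFOA and PFOS, which end in a carboxylic and a sulfonic acid group, were given at the same 6 doses on the same plate. Of 3 pairs of related chemicals compared over the doses both had, with p-values adjusted over all probes of each comparison, this was the one with called members: 2 of 21 differed, both higher with PFOA, against 2.46% of all probes. Cyp17a1 had 3.56, 4.04, 5.72, 3.47, 6.25 and 1.74 CPM with PFOA (15, 16, 32, 19, 31 and 4 counts) at 0.4, 1.2, 3.7, 11.1, 33.3 and 100 µM, and 0.936, 1.10, 1.05, 0.782, 0.407 and 1.32 CPM with PFOS (4, 5, 6, 4, 2 and 3 counts). PFOA was higher at each of the 6 doses. The 3 DMSO libraries of that plate had 2.09 to 2.83 CPM, below 5 of 6 PFOA libraries and above all 6 PFOS libraries. These DMSO libraries were also above all 6 libraries of cyproconazole, triticonazole, dichlobenil, dimethenamid, carbaryl and DEHP, so a lower value is not particular to PFOS. The difference of the slopes at 33.3 µM was 3.01 ± 0.63 (adjusted p = 0.0089). Both slopes start from the shared DMSO level, so a gap present at the lowest dose cannot be told apart from a change with dose. The trends against DMSO, 0.53 ± 0.44 for PFOA and -1.55 ± 0.62 for PFOS, did not pass on their own (adjusted p 0.52 and 0.65). Cyp2d1 differed by 0.49 ± 0.11 (adjusted p = 0.013), with 143.5, 157.3, 144.3, 157.7, 181.4 and 147.1 CPM with PFOA and 144.4, 147.0, 148.3, 144.0, 135.6 and 122.5 CPM with PFOS. PFOA was higher at 4 of the 6 doses. In the same fit 0 tested markers of any cell type differed.

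The PFOA library at 100 µM correlated at 0.830 with the DMSO median, its stellate and bile duct markers summed to 15.6 and 9.54 CPM, and its Cyp20a1 level was 353.2 CPM against 72.1 to 171.4 CPM in DMSO. Without the highest dose Cyp17a1 differed by 4.31 ± 0.66 (adjusted p = 0.00071) and Cyp2d1 did not pass (0.42 ± 0.13, adjusted p = 0.084). Cyp2j4 then differed by 1.62 ± 0.26 (adjusted p = 0.0011), and Cyp4v3 by 0.60 ± 0.16 (adjusted p = 0.044). Cyp2j4 had 20.4, 30.0, 32.9, 37.3, 49.6 and 9.54 CPM with PFOA and 23.6, 23.3, 17.6, 20.3, 17.1 and 20.7 CPM with PFOS, so it climbed with PFOA up to 33.3 µM and dropped at 100 µM. With all doses its difference was 0.90 ± 0.33 and did not pass (adjusted p = 0.14). With DMSO replicate 1 added Cyp17a1 passed and Cyp2d1 did not (adjusted p = 0.17).

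**Figure D4:**
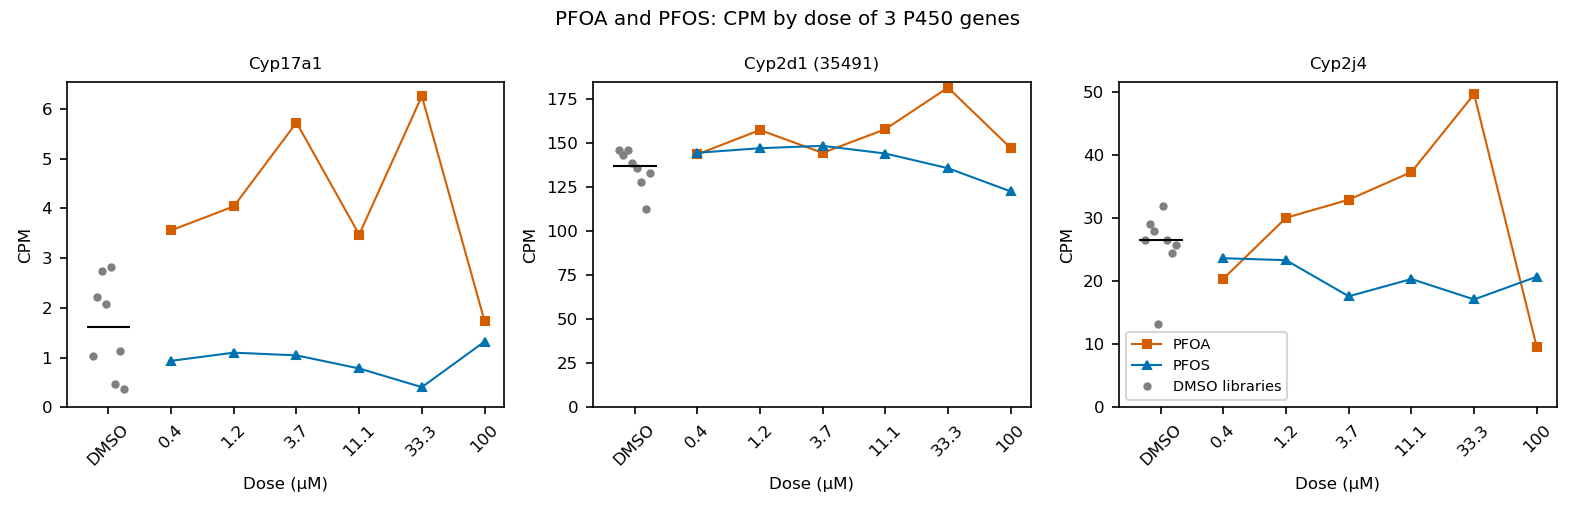
CPM of Cyp17a1, Cyp2d1 and Cyp2j4 (vertical axes, from 0) against dose in µM for PFOA (orange squares) and PFOS (blue triangles), with the 8 DMSO libraries as grey points and their median as a bar. PFOA lies above PFOS at all 6 doses for Cyp17a1, and at 4 of the 6 for Cyp2j4.

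The other pairs gave 0 called members. Acetochlor and alachlor are chloroacetamide herbicides that differ in their alkoxy and ring alkyl groups. For acetochlor minus alachlor 0.0% of all probes were called. Ametryn and simazine are triazine herbicides that differ in a methylthio group of ametryn for a chlorine of simazine and in 1 alkylamine. For ametryn minus simazine 0.00905% were called over the 5 doses from 0.4 to 33.3 µM that both had. Simazine at 0.4, 1.2 and 3.7 µM was on plate 2, and its higher doses and all ametryn libraries were on plate 1. Dose and plate of simazine are thus partly confounded in this fit and in its own trend. At an unadjusted p under 0.05 lay 4 and 2 of the 21 members, with no share of all probes at that threshold given. DESeq2 called 6 members over the 3 pairs, 4 for PFOA minus PFOS and 2 for ametryn minus simazine. For PFOA minus PFOS it called 838 of all tested probes, against 445 in edgeR. No share of all probes in DESeq2 is given for ametryn minus simazine, so these are not results about the members. Of the other pairs in edgeR, Cyp4f17 (probe 51210) had the smallest adjusted p. Its change was -0.94 for ametryn minus simazine (95% interval -1.37 to -0.51, adjusted p = 0.18). Cyp4f6 followed with -0.77 for acetochlor minus alachlor (95% interval -1.26 to -0.28, adjusted p = 0.24).

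The reference chemicals had 1 library each and so no replicate check, and their errors and p-values come from the spread of the DMSO libraries, which the lone library is assumed to share. Sulforaphane was the one with called members in edgeR. Cyp2d1, Cyp2d2, Cyp2d3 and Cyp2e1 were higher, against 9.93% of all probes, and Cyp4f6 and Cyp4v3 lower, against 18.5% of all probes. Cyp2d1 had 328.1 CPM with sulforaphane against 112.6 to 146.1 CPM in DMSO (change 1.64 ± 0.18, adjusted p = 0.00032). Cyp2d2 had 44.7 CPM against 10.4 to 25.03 CPM, Cyp2d3 36.1 CPM against 14.7 to 19.3 CPM, and Cyp2e1 175.2 CPM against 84.3 to 126.9 CPM. Cyp4v3 had 44.7 CPM against 158.2 to 199.1 CPM (change -1.59 ± 0.23, adjusted p = 0.0010) and Cyp4f6 6.87 CPM against 24.0 to 35.8 CPM. This library was the shallowest, with 582071 counts, correlated at 0.826 with the DMSO median, and its median change over all probes was -1.07, so these values are relative to a library that stands apart. Its bile duct markers summed to 127.1 CPM (Epcam was higher). Of the hepatocyte markers 3 were higher and 4 lower, of the macrophage markers 1 was higher and 2 lower, and of the endothelial and the stellate markers 1 each was higher and 1 lower. Their part in the result was not tested. With DMSO replicate 1 added 1 of the 6, Cyp2d1, passed.

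The other 8 reference libraries had 0 called members, and 0.552% of their tests over all probes were called. Cyp2j4 had 70.7 CPM with the PPAR alpha agonist WY-14,643, the highest of the 192 libraries, against 13.2 to 31.8 CPM in DMSO (change 1.44 ± 0.32, adjusted p = 0.13), and passed in DESeq2 (adjusted p = 0.016) and without DMSO replicate 5 (1.18 ± 0.20, adjusted p = 0.011). With Pregnenolone 16alpha carbinonitrile, Cyp2t1 had 38.6 CPM against 78.3 to 155.0 CPM in DMSO (change -1.63 ± 0.41, adjusted p = 0.090), Cyp2d4 12.1 CPM against 24.7 to 36.9 CPM (adjusted p = 0.061) and Cyp2d5 4.27 CPM against 7.87 to 20.9 CPM (adjusted p = 0.10). All 3 passed in DESeq2 (adjusted p 0.0049 to 0.010). Over the 9 libraries DESeq2 called 13 members, and edgeR called 16 without DMSO replicate 5, against 6 with it. Calls over all 11055 tested probes changed as well. With Pregnenolone 16alpha carbinonitrile they were 554 in DESeq2 and 516 without replicate 5, against 166. With oltipraz they were 377 and 411 against 141, with WY-14,643 120 and 128 against 59, and with sulforaphane 2478 and 3724 against 3147. These member counts are therefore not results about the members.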

How the data were processed

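The authors deposited whole-number counts per probe for 22253 probes in 192 libraries. Per the submitters' processing notes the aligner was Bowtie. Its version, the sequences of the probes and the genome build are not given in the sources used here. CPM were computed from these counts. No 2 libraries held identical counts, and 0 columns were left unmatched. Nothing states that wells came from separate animals or cultures. The p-values therefore reflect library-to-library spread, part or all of which may be technical.

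A probe was tested where 6 or more libraries reached 1.741 CPM, which is 10 counts for a library of median size, and 11055 probes qualified. Quasi-likelihood models were fitted with edgeR 4.0.16 (R 4.3.3), TMM scaling and a plate factor, with Benjamini-Hochberg adjustment over all tested probes of a comparison and a threshold of 0.05. Each chemical's 6 libraries and DMSO replicates 2 to 9 gave a slope on log2(1 + µM), printed as the change at 33.3 µM. Labelled doses lie about 3 times apart and were used as labelled, although the treatment text speaks of log2 steps. The azole trend is the mean of 8 slopes in 1 model, pairs are differences of slopes over the doses both chemicals had, and each reference library was set against DMSO. Limits for a count of 0 (3 counts) cover counting error only. The steps were tested on simulated data.

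Members and gene lists were chosen with earlier results of these data known. Every member is accounted for, and members called in a comparison are named. Cyp2u1, Cyp4f39 and probe 50449 of Cyp4f17 were tested and called in none of the comparisons above. They had 1.74 to 4.54, 0 to 1.89 and 2.25 to 4.87 CPM in DMSO replicates 2 to 9. Values at every dose are given for calls in the trends of single chemicals and in the pairs, and the azole mean is given by its fitted changes. Genes that are no members are named where they serve P450 enzymes or mark a cell type. Members that missed the threshold and are given with trend values, such as Cyp1b1 and Cyp2j4, were picked out after their values were seen. The tests were repeated with DESeq2 1.42.0, with DESeq2 size factors, without the filter, without the plate term, on dose ranks, with other sets of libraries, in 1 fit over all chemicals and with a library score as a covariate. Promoters and gene names come from RefSeq (GRCr8), where all 47 symbols were found, and promoters were aligned with Biopython 1.88.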

Additional observations from a re-analysis of the deposited data

Results flagged for a closer look

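In 9 cases 1 of the 9 DMSO libraries lay far from the other 8 for 1 of the 21 tested probes, by Dixon's test. Chance flags about 1 in 20 groups. DMSO replicate 1 was the library in 7 of these. It was highest for Cyp2a1 (probe 41802) at 57.6 CPM, for Cyp2d1 (probe 48248) at 5.27 CPM, for Cyp2d3 at 30.0 CPM and for Cyp4v3 at 281.4 CPM. It was lowest for Cyp2d1 (probe 35491) at 47.4 CPM, for Cyp2e1 at 27.8 CPM and for Cyp4f6 at 4.54 CPM. DMSO replicate 5 was highest for Cyp20a1 at 171.4 CPM and for Cyp2t1 at 155.0 CPM, and its library score, the first principal component of log2 CPM, was 2.77, against -1.003 to 0.33 in the other 7 DMSO libraries used as controls.

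The slopes of PFOA and PFOS differed for Cyp17a1 by 3.01 and for Cyp2d1 by 0.49 on the log2 scale at 33.3 µM. Each was found by a test of the difference itself, which cannot separate a gap at all doses from a change with dose.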

How the results depend on the processing

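Over the 29 chemicals the 15 calls became 3 with DMSO replicate 1 added (all 3 among the 15), 39 in DESeq2 (14 of the 15), 33 without the plate term (13), 8 with the dose rank (5), 3 without the highest doses (0), 54 with the library score as a covariate (15) and 55 in 1 fit over all chemicals (14). No called member reversed in any alternative run. For the 4 chemicals with calls, leaving out the highest dose gave 0 calls, and leaving out 1 other library 10 to 30, with 24 without DMSO replicate 5 and 30 without the second highest dose. The 9 azole calls became 0 without the highest doses, and 6 to 10 when 1 azole or DMSO library was left out. The 6 calls of the reference libraries became 1 with DMSO replicate 1, 13 in DESeq2, 10 without a filter and 11 without the plate term, and 6 to 16 when 1 DMSO library was left out. The 2 calls of the pairs became 1 with DMSO replicate 1, 6 in DESeq2 and 1 without a filter. DESeq2 gave no adjusted p for Cyp17a1 with cyproconazole. Calls over all probes changed as well, for PFOA minus PFOS from 445 to 838 in DESeq2. For dithiopyr they changed from 1437 to 2158 without DMSO replicate 5. The member counts of these runs are given without such shares, so they are not results about the members. The cause of these changes was not tested. Of the 51 probes, 18 had a DMSO median over the filter, and 18 to 19 without 1 of the libraries. Cyp17a1 rests on 0 to 32 counts per library in the comparisons named, which limits the precision of its values. No paired analysis was possible because the DMSO replicate numbers pair with no treated library.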

Other observations

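Bisphenol A gave 0 called members over all 6 doses, but its libraries did not follow the dose. Cyp2d3, with 14.7 to 19.3 CPM in DMSO, had 19.2, 11.6, 16.5, 6.94, 1.66 and 13.2 CPM at 0.14, 0.4, 1.2, 3.7, 11.1 and 33.3 µM, and 1.66 CPM was its lowest value among the treated libraries. Cyp2f4, with 35.1 to 65.9 CPM in DMSO, had 59.3, 24.4, 46.6, 23.0, 6.82 and 44.5 CPM at the same doses. Both genes were thus lowest at 11.1 µM and back within or near the DMSO range at 33.3 µM. Without the 33.3 µM library both passed (Cyp2d3 -4.19 ± 0.62, adjusted p = 0.0039, and Cyp2f4 -4.03 ± 0.64, adjusted p = 0.0041, each extrapolated to 33.3 µM in edgeR), along with 1176 of all 11055 tested probes. The 11.1 µM library correlated at 0.920 with the DMSO median and that at 33.3 µM at 0.984. These genes were picked after their values were seen.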
